A study of Mus musculus with 8 samples.

Results

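Cone phototransduction genes encode the visual pigments of the cones and the proteins that carry their light signal. Of 10 such genes, 9 (Opn1sw, Opn1mw, Arr3, Gnat2, Pde6c, Pde6h, Gngt2, Gnb3 and Kcne2) were followed here in the RPE/choroid of old and young mice, through all 13 probe sets annotated to 1 of these genes alone, among 45037 probe sets and 18193 genes in all. Cnga3, which encodes a subunit of the cone cyclic nucleotide-gated channel, had no probe set annotated to it alone and was not analysed here. The members were set by gene name, and no value of the arrays enters the rule, though they were chosen with earlier results of these data known. RNA came from the retinal pigment epithelium (RPE) and the choroid, the vascular layer behind it, of male C57BL/6 mice, 4 samples from old animals aged 26 months and 4 from young animals aged 4 months. Each sample pooled 4 RPE/choroids of 2 animals and was hybridized to 1 Affymetrix Mouse 430 2.0 array, and a replicate is thus 2 mice. The animals carried no transgene or treatment according to the labels, and age is the labelled difference between the groups.

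In a cone, light isomerizes the retinal bound to an opsin, the opsin activates transducin, and the alpha subunit of transducin relieves the inhibition of a phosphodiesterase that degrades cyclic GMP. The fall in cyclic GMP closes cation channels of the outer segment, and arrestin then shuts the pigment off. Rods run the same cascade with their own set of proteins. Photoreceptors belong to the neural retina and not to the RPE or choroid, but their outer segments are embedded in the apical processes of the RPE, which engulfs the shed tips and recycles the chromophore. The C57BL/6 mouse retina holds far more rods than cones.

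Kcne2 and Pde6c were lower and Gngt2 was higher in old than in young RPE/choroid, and Opn1mw was lower by a smaller amount. Their log2 fold changes, old over young, were -1.01 ± 0.19 for Kcne2, -0.74 ± 0.19 for Pde6c and 0.69 ± 0.10 for Gngt2 (± standard error). When each gene was read from its brightest probe set on average, 3 of the 9 genes were lower and 1 was higher at an adjusted p under 0.05 (limma over all probe sets), and 5 did not pass. Over all 18193 genes the same rule called 9.56% lower and 11.8% higher. The log2 fold change, old over young, was negative for 7 of the 9 genes, with a median of -0.37 against -0.02 over all genes. By probe set, 3 of 13 were lower and 1 was higher, beside 8.75% and 9.22% of all probe sets.

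The 4 arrays of each age did not behave alike for these genes. Old replicate 4 gave the highest value among the old arrays in 13 of 13 probe sets, and young replicate 4 gave the lowest among the young arrays in 12 of 13. Among all genes, the same held for 4550 and for 3651 of 18193. Old replicates 1 to 3 lay below young replicates 1 to 3 in 10 of 13 probe sets, and by gene in 7 of 9, against 3521 of 18193 genes in all. When old replicate 4 was left out, 6 of the 9 genes and 8 of the 13 probe sets were lower, beside 6.93% of all probe sets, and 1 gene was higher. Kcne2 alone was lower when any of old replicates 1 to 3 or young replicates 1 to 3 was left out. Of all probe sets, 4.74% to 8.95% were lower in these fits. Without young replicate 4 the same 3 genes were lower as with all arrays, beside 5.6% of all probe sets.

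**Figure D1:**
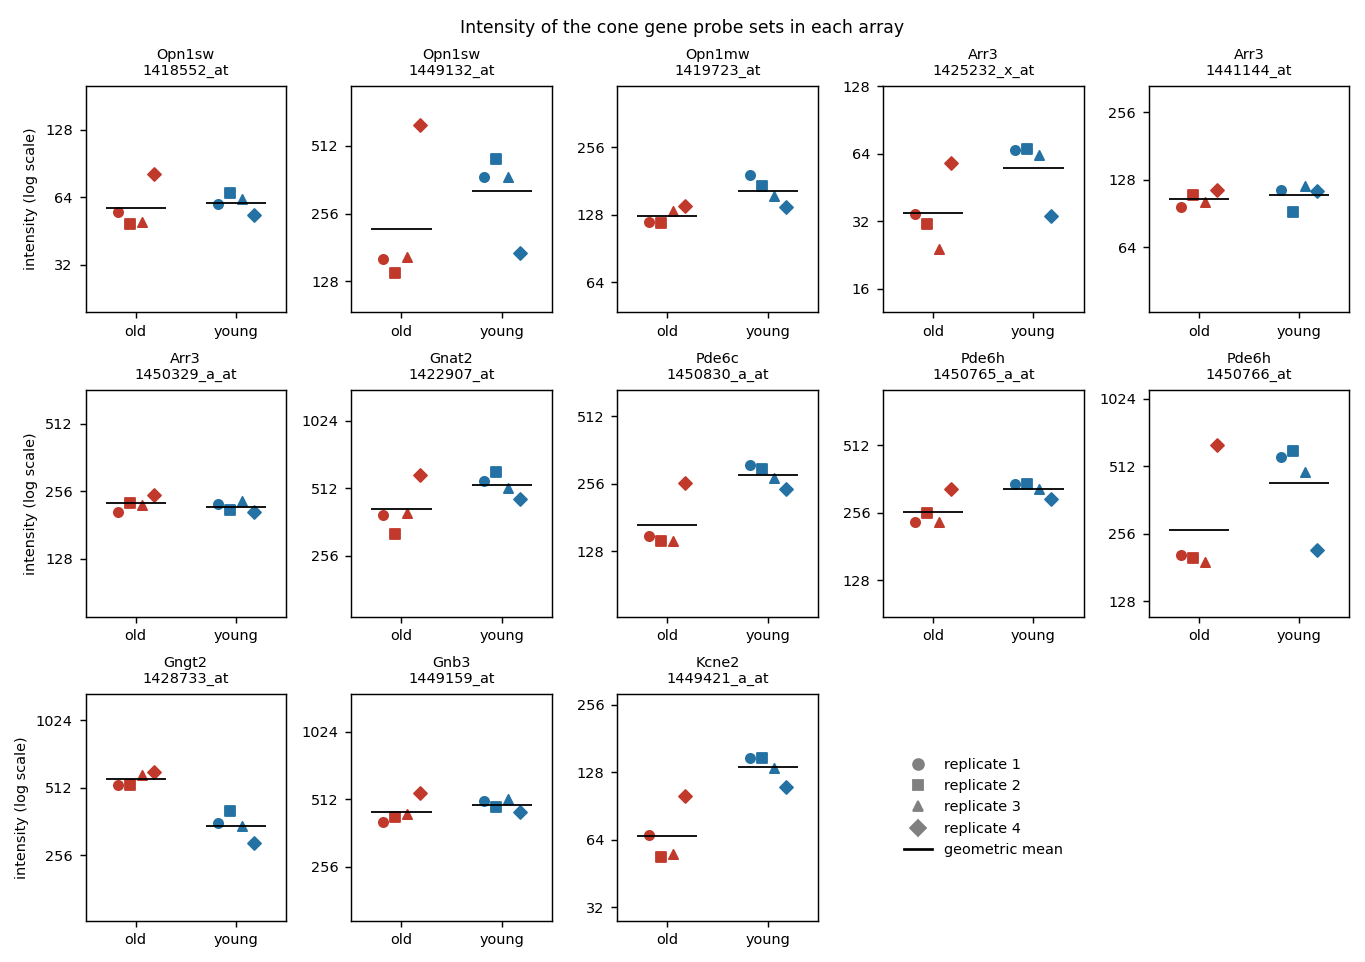
Intensity, on a log scale, of each of the 13 probe sets in the 4 old arrays (red) and the 4 young arrays (blue), with a symbol for each replicate number and a line at the geometric mean. Old replicate 4 is the highest old array in 13 of 13 panels. The ages separate for Gngt2, higher in old, and for Kcne2, lower in old.

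Upstream sequence is shown for Opn1sw and Pde6h, whose values differed most between replicates of an age, for Gnat2, which holds the longest form of the motif sought, and for Kcne2, which had the strongest change (RefSeq, GRCm38.p6, the 150 bases before the annotated start, written 5′ to 3′ on the strand of the gene). Capitals mark the letters TAATC, or GATTA where the match is on the other strand, a core recognised by homeodomain factors of the CRX type, which regulate photoreceptor genes.
Opn1sw, chr6:29380514-29380663, minus strand: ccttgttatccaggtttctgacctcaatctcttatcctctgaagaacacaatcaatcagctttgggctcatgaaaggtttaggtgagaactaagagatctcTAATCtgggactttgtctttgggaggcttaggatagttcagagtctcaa
Pde6h, chr6:136954373-136954522, plus strand: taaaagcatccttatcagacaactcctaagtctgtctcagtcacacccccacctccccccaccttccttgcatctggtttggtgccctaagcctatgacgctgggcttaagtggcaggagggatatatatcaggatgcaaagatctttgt
Gnat2, chr3:108092916-108093065, plus strand: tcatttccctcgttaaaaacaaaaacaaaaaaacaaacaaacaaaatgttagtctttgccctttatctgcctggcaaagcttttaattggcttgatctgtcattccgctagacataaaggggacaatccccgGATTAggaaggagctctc
Kcne2, chr16:92292239-92292388, plus strand: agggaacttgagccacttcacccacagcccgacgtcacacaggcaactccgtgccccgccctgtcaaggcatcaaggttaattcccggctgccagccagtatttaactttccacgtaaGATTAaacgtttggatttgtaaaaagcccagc
The match began 49 bases before the start in Opn1sw, 18 in Gnat2 and 32 in Kcne2, and the letters were not found in the window of Pde6h or before the other annotated start of Kcne2. Of the 10 genes 7 had a sequence, Cnga3 among them, and 4 of these 7 held these letters on either strand. Counted by promoter, 4 of 9 held them, beside 11.7% of the 32851 promoters of the same length. The longer form TAATCC, or GGATTA, was found in Gnat2 alone among the 7, in 1 of the 9 promoters, and in 3.6% of all promoters. Arr3 held the letters at 3 places, 116, 102 and 10 bases before its start.

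The visual pigments of mouse cones are a short wavelength opsin, Opn1sw, and a middle wavelength opsin, Opn1mw. Opn1sw gave intensities of 160, 139, 165 and 634 in old replicates 1 to 4, against 374, 446, 374 and 172 in young replicates 1 to 4 (probe set 1449132_at). The last array of each age crossed over, so that old replicate 4 was the highest of all 8 arrays and young replicate 4 lay with the other old arrays. Old replicate 4 was 4.10 times the mean of the other old arrays, and the mean of young replicates 1 to 3 was 2.32 times young replicate 4. The log2 fold change of -0.55 had a 95% confidence interval from -1.64 to 0.53 and did not pass (adjusted p = 0.462, limma). Without old replicate 4 it was -1.06 (adjusted p = 0.0431, limma). It did not pass when any other array was left out (adjusted p from 0.266 to 0.710, limma). The other Opn1sw probe set, 1418552_at, ran from 48.9 to 80.9 in old and from 53.1 to 67.1 in young arrays, with a log2 fold change of -0.08 (adjusted p = 0.764, limma), and old replicate 4 was again the highest array. Calu, which overlaps Opn1sw in RefSeq, gave 2482 to 2810 in old and 2328 to 2567 in young arrays.

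Opn1mw gave intensities of 118, 118, 133 and 140 in old replicates 1 to 4, against 192, 173, 155 and 139 in young replicates 1 to 4 (probe set 1419723_at). Its means were 127 ± 11.1 in old and 165 ± 22.8 in young arrays (SD, n = 4 each), and only old replicate 4 and young replicate 4 crossed. Its log2 fold change was -0.37 ± 0.10 (standard error; adjusted p = 0.0406, limma). The call was lost when any of old replicates 1 to 3 or young replicates 1 to 3 was left out. Without old replicate 4 the log2 fold change was -0.41. Quantile normalization, median centring, a floor of 32, array weights and the replicate block also lost the call (adjusted p from 0.0610 to 0.0973, limma).

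Transducin of cones is built from the alpha subunit Gnat2, which binds GTP and activates the phosphodiesterase, the beta subunit Gnb3 and the gamma subunit Gngt2. Gnat2 gave intensities of 390, 319, 396 and 587 in old replicates 1 to 4, against 548, 601, 513 and 456 in young replicates 1 to 4 (probe set 1422907_at). Old replicates 1 to 3 lay below all young arrays and old replicate 4 lay among them. The log2 fold change was -0.35 (95% confidence interval -0.73 to 0.02, adjusted p = 0.176, limma), and without old replicate 4 it was -0.52 (adjusted p = 0.019, limma). With any other array left out, Gnat2 did not pass (adjusted p from 0.159 to 0.361, limma). Gnb3 ran from 407 to 547 in old and from 452 to 513 in young arrays (probe set 1449159_at). Its log2 fold change of -0.10 (95% confidence interval -0.31 to 0.11) did not pass (adjusted p = 0.493, limma).

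Gngt2 went the other way. Its intensities were 526, 530, 582 and 605 in old replicates 1 to 4, against 359, 403, 345 and 290.5 in young replicates 1 to 4 (probe set 1428733_at). All old arrays lay above all young arrays, as for 15.8% of all genes. The means were 560 ± 39.0 in old and 349 ± 46.2 in young arrays (SD, n = 4 each), a fold of 1.61 and a log2 fold change of 0.69 (95% confidence interval 0.47 to 0.91, adjusted p = 0.00201, limma). Within each age, old replicate 4 was still the highest old array and young replicate 4 the lowest young array, as for the genes that were lower in old tissue. The gene overlaps Abi3 in the RefSeq annotation. Abi3 had a log2 fold change of -0.11 (adjusted p = 0.239, limma), with values of 201 to 233 in old and 223 to 236 in young arrays. Outside the retina Gngt2 is also known from white blood cells. A list of 12 markers of mononuclear phagocytes was written after the Gngt2 values had been seen. Of these 12, 10 were higher in old arrays and 0 lower, beside 11.8% and 9.56% of all genes. The median log2 fold change of the 12 was 1.09, and their summed intensity was 28013 to 30867 in old and 15711 to 17341 in young arrays. Itgam rose by 1.52, Cd68 by 1.47 and Ptprc, the leukocyte common antigen, by 1.30 on the log2 scale. Csf1r and Cx3cr1, named here outside the naming rule, did not pass. They changed by -0.04 (adjusted p = 0.691, limma) and -0.18 (adjusted p = 0.213, limma). The part of these cells in the rise of Gngt2 was not tested.

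The effector of the cascade is the cone phosphodiesterase, whose catalytic subunit is Pde6c and whose inhibitory gamma subunit is Pde6h. Pde6c gave intensities of 150, 142, 142 and 258 in old replicates 1 to 4, against 309, 298, 270 and 241 in young replicates 1 to 4 (probe set 1450830_a_at). Old replicates 1 to 3 lay close together and below every young array, and old replicate 4 lay above young replicate 4. The means were 173 ± 56.8 in old and 279 ± 30.3 in young arrays (SD, n = 4 each), a log2 fold change of -0.74 (95% confidence interval -1.16 to -0.32, adjusted p = 0.0251, limma). Without old replicate 4 it was -0.95 (adjusted p = 0.000511, limma). When any of old replicates 1 to 3 or young replicates 1 to 3 was left out, the call was lost (adjusted p from 0.0546 to 0.0708, limma). A floor of 32 (adjusted p = 0.0553, limma) and the replicate block (adjusted p = 0.0571, limma) also lost it.

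Pde6h gave intensities of 207, 199, 192 and 638 in old replicates 1 to 4, against 560, 600, 480 and 218 in young replicates 1 to 4 (probe set 1450766_at). As for Opn1sw, old replicate 4 was the highest and young replicate 4 the lowest array of its age, with old replicate 4 at 3.21 times the mean of the other old arrays and the mean of young replicates 1 to 3 at 2.51 times young replicate 4. The log2 fold change of -0.70 (95% confidence interval -1.68 to 0.28) did not pass (adjusted p = 0.295, limma), and without old replicate 4 it was -1.12 (adjusted p = 0.0461, limma). It did not pass with any other array left out (adjusted p from 0.121 to 0.494, limma). The other Pde6h probe set, 1450765_a_at, gave 233, 255, 232 and 328 in old replicates 1 to 4, against 343, 343, 327 and 294 in young replicates 1 to 4. Its log2 fold change of -0.33 (standard error 0.11) missed the threshold as well (adjusted p = 0.0711, limma) and was -0.44 without old replicate 4 (adjusted p = 0.00789, limma). With any other array left out, this probe set did not pass either (adjusted p from 0.0726 to 0.169, limma).

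Arr3, the cone arrestin that quenches the activated opsins, had 3 probe sets that differed from one another. The one with the highest level, 1450329_a_at, gave 208, 227, 223 and 246 in old replicates 1 to 4, against 223, 211, 230 and 208 in young replicates 1 to 4. Its log2 fold change was 0.05 (95% confidence interval -0.10 to 0.20, adjusted p = 0.646, limma). Probe set 1425232_x_at, whose suffix marks probes that may also match other transcripts, gave 34.3, 31.0, 23.9 and 57.9 in old replicates 1 to 4, against 66.2, 67.3, 63.2 and 33.6 in young replicates 1 to 4. Young replicate 4 lay with the old arrays and old replicate 4 near the young ones, and the log2 fold change of -0.67 did not pass (adjusted p = 0.144, limma). It passed without old replicate 4 (-0.92, adjusted p = 0.042, limma) and without young replicate 4 (-0.91, adjusted p = 0.0478, limma). The third probe set, 1441144_at, ran from 96.5 to 115 in old and from 92.0 to 120 in young arrays, with a log2 fold change of -0.06 (adjusted p = 0.714, limma).

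Kcne2 encodes a small single-pass subunit that modifies voltage-gated potassium channels, and it is not a step of the light cascade itself. It gave intensities of 67.5, 53.5, 55.1 and 101 in old replicates 1 to 4, against 149, 149, 134 and 110 in young replicates 1 to 4 (probe set 1449421_a_at). All old arrays lay below all young arrays, as for 13.7% of all genes, and the nearest were again old replicate 4 and young replicate 4. The means were 69.2 ± 21.9 in old and 136 ± 18.3 in young arrays (SD, n = 4 each), a fold of 0.497 and a log2 fold change of -1.01 (95% confidence interval -1.44 to -0.57, adjusted p = 0.00824, limma). It was the only one of the 9 genes past a fold of 2 with an adjusted p under 0.01, a rule that called 0.0989% of all genes lower and 1.13% higher, and 0.0799% and 0.764% of all probe sets. This stricter call rested on a fold close to the limit. It was lost with quantile normalization and median centring (log2 fold change -0.98 in each), with a floor of 32 (adjusted p = 0.0241, limma), with trend and robust estimation (adjusted p = 0.0107, limma), with array weights, the replicate block or the rod level as a covariate, and when any array other than old replicate 4 was left out (adjusted p from 0.0114 to 0.0272, limma).

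Kcne2 is also known from choroid plexus epithelium, and its channel partners Kcnq1 and Kcnh2 were followed with the other KCNE genes. Of 5 such genes measured, Kcnq1 fell by 0.45 (adjusted p = 0.00525, limma) and Kcne4 rose by 0.60 on the log2 scale (adjusted p = 0.00236, limma), and 3 did not pass. Of 5 genes typical of choroid plexus and ciliary epithelium, 1 was lower, Kcnj13, an inward rectifier channel of the RPE, which fell by 0.42 (adjusted p = 0.0037, limma). For 4 of these 5 genes all old arrays lay below all young arrays, as for 13.7% of all genes. The summed intensity of the 5 was 18289 to 18738 in old and 22073 to 23768 in young arrays. In each array Kcnj13 was the largest of the 5, at 7221 to 8550 in old and 9967 to 10941 in young arrays. The part of the RPE or of ciliary epithelium in the fall of Kcne2 was not tested.

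**Figure D2:**
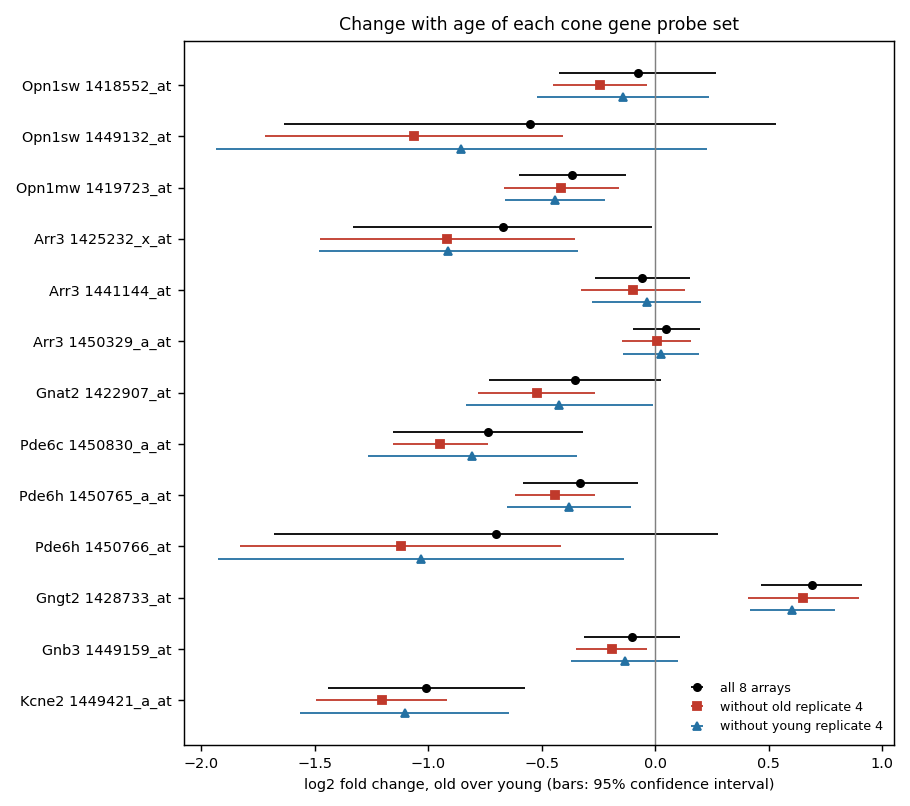
Log2 fold change, old over young, of each of the 13 probe sets with its 95% confidence interval, from all 8 arrays (black circles), without old replicate 4 (red squares) and without young replicate 4 (blue triangles). Gngt2 is the only gene whose intervals lie above 0, and the estimates for Opn1sw 1449132_at and Pde6h 1450766_at move from -0.55 to -1.06 and from -0.70 to -1.12 without old replicate 4.

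Replicate 4 of each age stood apart for most of the rod counterparts as well. Of 10 measured rod phototransduction genes, 1 was lower in old arrays and 0 higher, beside 9.56% and 11.8% of all genes. The median log2 fold change of the 10 was -0.57. The gene that passed was Slc24a1, the rod sodium, calcium and potassium exchanger, which fell by 0.28 (adjusted p = 0.0364, limma), and 0 passed with median centring. Without old replicate 4, 3 of the 10 were lower, beside 6.93% of all probe sets. Without old replicate 2 or 3 or young replicate 1, 2 or 3, 0 were lower. Gnat1, rod transducin alpha, gave 2379, 3403, 2146 and 5743 in old replicates 1 to 4, against 5945, 5935, 5048 and 2909 in young replicates 1 to 4. Old replicate 4 was the highest old array for 10 of 10 rod genes and young replicate 4 the lowest young array for 9 of 10. For the median rod gene, old replicate 4 was 2.24 times the mean of the other old arrays and the mean of young replicates 1 to 3 was 2.04 times young replicate 4, against 1.58 and 1.22 over the 13 cone probe sets. The summed intensity of the rod genes was 13333, 16826, 12476 and 24920 in old replicates 1 to 4, and 26144, 26585, 23560 and 15750 in young replicates 1 to 4. In these bulk samples, fewer cells of a type and less RNA per cell cannot be told apart.

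For 6 pairs of a cone gene and its rod counterpart, the log2 difference cone minus rod was taken within each array and compared between the ages with a two-sided exact permutation test, whose smallest possible p is 0.0286 with 4 arrays each. None of the 6 pairs passed after adjustment over the 6. A pair alone at the smallest p has an adjusted p of 0.171, so this test could not call 1 pair alone. The difference of Gngt2 over Gngt1, the rod gamma subunit, was 1.47 higher in old than in young arrays, with no overlap (exact p = 0.0286, adjusted p = 0.171). That of Arr3 over Sag, the rod arrestin, was 0.69 higher (exact p = 0.114, adjusted p = 0.343). Arr3 was read here from 1450329_a_at, with a log2 fold change of 0.05 beside -0.64 for Sag. Its other probe sets changed by -0.67 (1425232_x_at) and -0.06 (1441144_at). The difference of Gnat2 over Gnat1 was 0.24 higher (exact p = 0.343, adjusted p = 0.686). For the other three, Gnb3 over Gnb1, Pde6c over Pde6b and Pde6h over Pde6g, the age difference was -0.02, -0.18 and -0.08, with adjusted p from 0.814 to 0.886 (exact test).

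**Figure D3:**
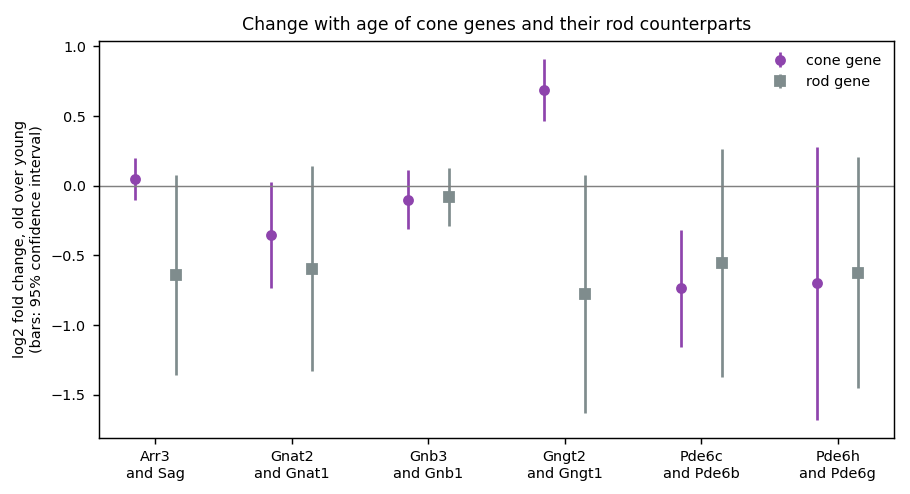
Log2 fold change, old over young, with its 95% confidence interval from limma, of each cone gene (circles) and of its rod counterpart (squares) in 6 pairs. Gngt2, at 0.69, lies above 0 where Gngt1 lies below it, while Gnb3 and Gnb1, and Pde6h and Pde6g, lie close together.

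Other genes of the photoreceptor were counted in the same way, beside 9.56% lower and 11.8% higher among all genes. Of 5 other cone-enriched genes, 1 was lower, Slc24a2, the cone exchanger, which fell by 0.43 (adjusted p = 0.0213, limma), and 1 was higher, Rxrg, a nuclear receptor of cones, which rose by 0.19 (adjusted p = 0.0301, limma). Old replicate 4 was the highest old array for 3 of these 5 and young replicate 4 the lowest young array for 0 of 5. Of 9 regulators that rods and cones share, 0 were lower and 0 higher, with a median log2 fold change of -0.21. Of 14 outer segment and photoreceptor genes, 1 was lower, Elovl4, an elongase of very long chain fatty acids, which fell by 0.61 (adjusted p = 0.0302, limma), and 13 did not pass, with a median of -0.53. Without old replicate 4, 6 of the 14 were lower, beside 6.93% of all probe sets. With a floor of 32 or the replicate block, 0 were lower. Leaving out any of old replicates 1 to 3 or young replicates 1 to 3 also left 0 lower. Old replicate 4 was the highest old array and young replicate 4 the lowest young array for 14 of these 14 genes.

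Markers of the cells that the dissection was meant to hold and of other retinal cells were set beside these values. Of 14 RPE genes, 9 were lower in old arrays and 0 higher, beside 9.56% and 11.8% of all genes. The median log2 fold change of the 14 was -0.20. The count of lower RPE genes was 3 with median centring and ranged from 2 to 8 when 1 array was left out. It was 2 without old replicate 2, 3 or 4 or young replicate 1. Of all probe sets, 6.71% were lower with median centring and 4.74% to 8.95% when 1 array was left out. The summed intensity of the RPE genes was 104848 to 113455 in old and 120584 to 123489 in young arrays. Rrh, an opsin of the RPE, fell by 0.55, Slc45a2, a melanosome transporter, by 0.49 and Tyr, which makes melanin, by 0.41. The retinoid isomerase Rpe65, a defining RPE marker named here outside the naming rule, gave 10806 to 11414 in old and 10929 to 12118 in young arrays. Old replicate 4 and young replicate 4 did not stand apart in the RPE list, where old replicate 4 was the highest old array for 2 and young replicate 4 the lowest young array for 3 of the 14 genes.

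Of 16 genes of inner retinal neurons, 1 was lower, Slc6a9, a glycine transporter (log2 fold change -0.34), and 1 was higher, Prkca, a protein kinase of rod bipolar cells (0.32), with a median of -0.12. Without old replicate 4, 7 of the 16 were lower and 0 higher, beside 6.93% and 7.16% of all probe sets. Of the 16, 0 were higher when any array other than old replicate 1 was left out. Quantile normalization, a floor of 32 and the replicate block also left 0 of the 16 higher. Their summed intensity was 6407, 6989, 6501 and 8264 in old replicates 1 to 4 and 7853 to 8444 in young arrays, so that old replicate 4 stood above the other old arrays here as well while young replicate 4 did not stand below the other young arrays. Of 6 genes of Mueller glia and astrocytes, 2 were lower, the glutamate transporter Slc1a3 (log2 fold change -1.41) and Gfap (-0.98), and 0 higher, with summed intensities of 11042 to 12245 in old and 12004 to 13610 in young arrays. The part of retinal tissue in the arrays in the differences of the cone genes was not tested.

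**Figure D4:**
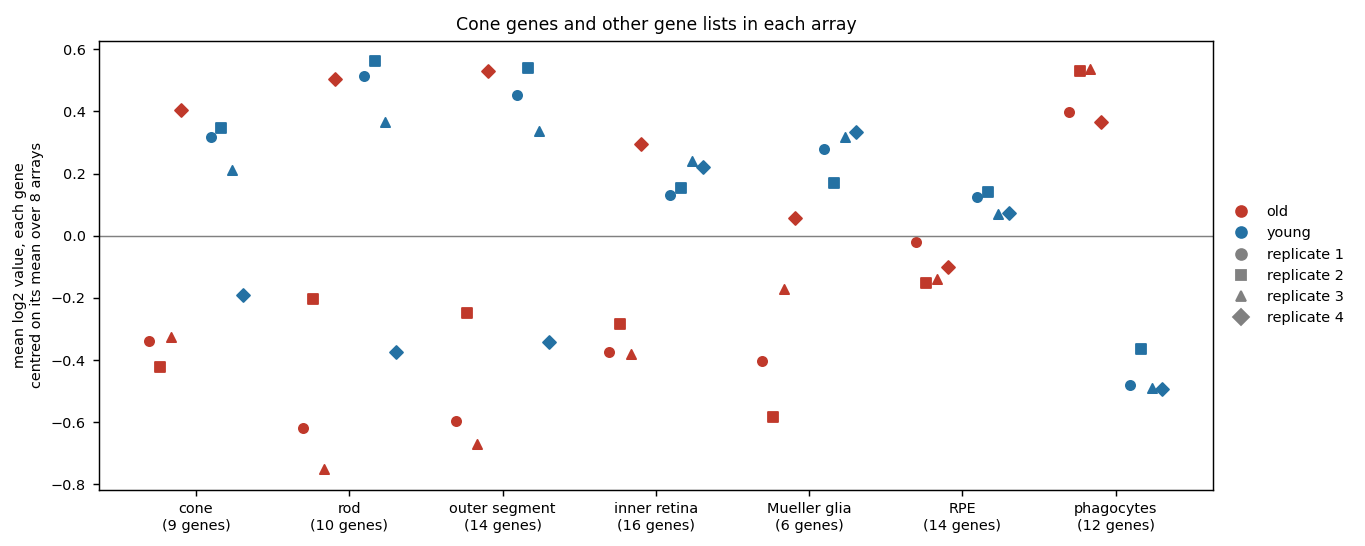
Mean log2 value of each gene list in each array, after subtraction of each gene's average, with old arrays in red and young arrays in blue and a symbol for each replicate number. In the cone, rod and outer segment lists old replicate 4 (0.40 in the cone list) lies with young replicates 1 to 3 (0.21 to 0.35) and young replicate 4 (-0.19) lies towards old replicates 1 to 3 (-0.42 to -0.33), an order not seen in the RPE and phagocyte lists.

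The rod level was also entered as a covariate, an alternative added after the data were seen. With the mean centred log2 value of the rod list in the model, Kcne2 had a log2 fold change of -0.72 (adjusted p = 0.019, limma) and Gngt2 one of 0.80 (adjusted p = 0.00241, limma). Pde6c, at -0.45 (adjusted p = 0.0613, limma), and Opn1mw, at -0.25 (adjusted p = 0.173, limma), no longer passed. The estimates for Opn1sw and Pde6h turned positive, at 0.25 and 0.0643, and neither passed. The median over the 9 genes was then 0.02.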

How the data were processed

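RNA of RPE/choroid was measured on Affymetrix Mouse 430 2.0 arrays. The authors deposited linear intensity values, which they had normalized in a way the table leaves unnamed, with array medians of 129 to 135. Detection calls were not used. A floor of 1, which 8 to 14 values per array lay below, preceded the log2 transform. Of 45101 probe sets, 64 controls were left out, and limma 3.58.1 in R 4.3.3 (lmFit and eBayes, old against young, no covariate) was fitted to the other 45037 with Benjamini-Hochberg adjustment. A single gene was named by 34945 probe sets, several by 932 and none by 9160. Each gene was read from the probe set of highest average log2 value. The fit was tested on simulated data. The labels do not say that replicates share litters or preparation days, and the number of arrays limits the precision.

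The member genes, lists and tests were chosen with earlier results of these data known. Named were all members by every probe set, in each list at most 3 genes that changed most among those under an adjusted p of 0.05, the rod counterparts, and the 5 genes most like the members' mean. Alternatives were quantile normalization, median centring, a filter (intensity of 100 in 4 arrays), a floor of 32, array weights, a robust eBayes with trend, a replicate block, leaving out each array, averaged probe sets and a stricter threshold. Promoters came from RefSeq (GRCm38.p6).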

Additional observations from a re-analysis of the deposited data

Results flagged for a closer look

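In 4 of the 26 groups of 4 arrays (13 probe sets at each age), 1 array lay far from the other 3. The measure was Dixon's ratio of log2 values, which flags about 1 in 20 groups by chance. The probe sets were read on the same arrays and are not independent, so 4 of 26 cannot be set against that rate. Opn1sw (1449132_at) was at 634 in old replicate 4, against 139 to 165 in the other old arrays. Pde6h (1450766_at) was at 638 in old replicate 4, against 192 to 207 in the other old arrays. Pde6c (1450830_a_at) was at 258 in old replicate 4, against 142 to 150 in the other old arrays. Arr3 (1425232_x_at) was at 33.6 in young replicate 4, against 63.2 to 67.3 in the other young arrays.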

How the results depend on the processing

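Kcne2 was lower and Gngt2 higher at an adjusted p under 0.05 under each alternative run (log2 fold change -1.20 to -0.72 and 0.60 to 0.80). The count of lower genes, 3 with all arrays, was 1 with a floor of 32 and with the rod level as a covariate. It was also 1 with a fold over 2 at an adjusted p under 0.01, and ranged from 1 to 6 when 1 array was left out. The count of lower probe sets, 3 with all arrays, was 1 with that floor and with that threshold, and ranged from 1 to 8. It was 4 with the filter and with trend and robust estimation. Of all probe sets, 8.96% were lower with that floor, 3.74% with the covariate, 0.0799% at that threshold and 4.74% to 8.95% when 1 array was left out. The share was 15.1% of the probe sets that passed the filter and 10.4% with trend and robust estimation. The stricter threshold left 0 genes and 0 probe sets higher. After the age effect was removed, same-numbered arrays had correlations of 0.0971, 0.0190, 0.0218 and 0.0427, with the own number best for replicate 1 alone. The labels give these arrays a shared number and no other link. With 4 numbers, the correlations cannot tell whether they share more. With the replicate block 1 gene and 1 probe set were lower, beside 6.51% of all probe sets. Quantile normalization and median centring each gave 2 lower genes, beside 9.39% and 6.71% of all probe sets. With the rod level as a covariate the sign turned for Opn1sw (0.25), Pde6h (0.0643) and Gnb3 (0.0236), and with all probe sets of a gene averaged it turned for Arr3 (-0.23). Among the pairs, it turned for Gnb3 over Gnb1 with quantile normalization (0.00838) and for Pde6h over Pde6g with averaged probe sets (0.14). When 1 array was left out, the age difference ranged from -0.0806 to 0.0442 for Gnb3 over Gnb1, from -0.315 to 0.00781 for Pde6c over Pde6b and from -0.160 to 0.0776 for Pde6h over Pde6g. The cause was not tested. Gngt2 over Gngt1 had an adjusted p of 0.171 to 0.343 when 1 array was left out (exact test). By exact sign-flip over the replicate numbers its adjusted p was 0.75, the smallest that test can give to 1 pair alone. The sign-flip could thus not call this pair alone. No background signal was used, so dim probe sets were not bounded.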

Other observations

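The genes outside the cone list whose representative probe set ran most like the mean centred log2 value of the 9 cone genes over the 8 arrays were Rtbdn, Lrit1, P3h1, Gnb5 and Prkcz, with Pearson r of 0.984, 0.982, 0.980, 0.978 and 0.973. The values are a description over arrays shared by all genes. Rtbdn, a retinal riboflavin-binding protein, gave 266, 301, 276 and 741 in old replicates 1 to 4, against 785, 780.2, 632 and 341 in young replicates 1 to 4. Lrit1, a membrane protein of photoreceptors, gave 151, 169, 149 and 348 in old replicates 1 to 4, against 321, 355, 292 and 186 in young replicates 1 to 4. Both had the high old replicate 4 and the low young replicate 4 of the cone genes. After the mean of each age was taken out, the 5 most alike were Sgip1, Rtbdn, P3h1, Lrit1 and Gnb5, with r from 0.973 to 0.984.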
